A study of Mus musculus with 6 samples.

Results

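The 10 genes described here mark amacrine and horizontal cells, the inhibitory interneurons of the retina. They were chosen by name as Gad1, Gad2, Slc32a1, Slc6a9, Chat, Th, Tfap2a, Tfap2b, Onecut1 and Onecut2, and every peak whose summit lay inside one of them or within 10 kb was taken, in mm10 coordinates. They are 10 of 21900 protein-coding genes in the gene table, and they held 106 of the 320474 peaks of the series. The genes were picked because peaks at their ends had been seen to be rarer in 1 library than in another, so these end counts are given as a description, without a test.

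The data are chromatin immunoprecipitation sequencing (ChIP-seq) libraries from mouse retina, made with a rabbit antibody against BMAL1, a transcription factor of the circadian clock. Wild-type mice gave 3 libraries, called control 1 to 3, and conditional Bmal1 knockouts gave the other 3, called Bmal1 CKO 1 to 3. All mice were C57BL/6, received no external treatment, and were weaned at postnatal day 20. The labels do not name the Cre line, the cells that lost the gene, the age at sampling or the time of day. They do not say whether a library came from 1 animal. Peak lists hold no expression values, so neither the tissue nor the loss of Bmal1 could be checked with them.

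Amacrine cells connect bipolar and ganglion cells, and horizontal cells feed back onto photoreceptors. Most amacrine cells release GABA or glycine. Smaller classes also make acetylcholine or dopamine, and retinal dopamine is known to follow a daily rhythm. BMAL1 binds DNA with its partner CLOCK, at a short motif called the E-box (CACGTG), and the pair activates genes of the clock. Because amacrine and horizontal cells are a minority of retinal cells, a whole-retina library mixes their chromatin with that of many other cells.

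Of the 6 lists, 2 were long (179475 peaks in control 1 and 138254 in Bmal1 CKO 2) and 4 were short (372 to 1444 peaks). All 106 peaks at the 10 genes came from the long lists, 73 from control 1 and 33 from Bmal1 CKO 2. Control 2, control 3, Bmal1 CKO 1 and Bmal1 CKO 3 listed none, and the closest summit in them was 31.3 kb from Gad2, in Bmal1 CKO 1. Counted the same way, 0.781%, 0.758%, 1.99% and 1.08% of all protein-coding genes had any peak in these 4 lists. For a peak near a gene end, as defined below, the shares were 0.0594%, 0.0594%, 0.315% and 0.105%. The absence at 10 genes is therefore what most genes showed. Everything below rests on 1 library of each genotype, so no difference between genotypes has a replicate check. The genome-wide background, recovered from the deposited values as the number of fragments expected per base, was 3.46 in control 1 and 5.83 in Bmal1 CKO 2, against 0.56 to 2.78 in the short lists. The 2.78 was that of Bmal1 CKO 1, which listed 1444 peaks, against 179475 in control 1. How far depth, read from this background, sets the number of peaks was not tested.

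The promoters are shown first, because the results turn on where summits lie around the start sites. Each line gives the 250 bases before a start site in RefSeq (GRCm38.p6), 5′ to 3′ along the gene's strand. Capitals mark matches, on either strand, to the E-box CACGTG, its variant CACGTT, the cyclic AMP response element TGACGTCA, the GC box GGGCGG and CCAAT. The first 5 had a control 1 summit within 1 kb of the start site, and Chat is shown for contrast, since it had an E-box and no summit that close. The windows are, in turn, chr2:70561879-70562128 (plus strand), chr2:22622077-22622326 (plus), chr4:117835008-117835257 (plus; the first of 3 start sites), chr7:142899996-142900245 (minus), chr9:74861671-74861920 (plus) and chr14:32465910-32466159 (minus).
Gad1: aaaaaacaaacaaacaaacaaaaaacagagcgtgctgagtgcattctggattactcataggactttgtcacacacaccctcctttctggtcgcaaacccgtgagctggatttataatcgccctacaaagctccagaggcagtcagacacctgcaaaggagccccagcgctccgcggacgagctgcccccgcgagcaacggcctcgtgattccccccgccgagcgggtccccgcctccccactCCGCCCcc
Gad2: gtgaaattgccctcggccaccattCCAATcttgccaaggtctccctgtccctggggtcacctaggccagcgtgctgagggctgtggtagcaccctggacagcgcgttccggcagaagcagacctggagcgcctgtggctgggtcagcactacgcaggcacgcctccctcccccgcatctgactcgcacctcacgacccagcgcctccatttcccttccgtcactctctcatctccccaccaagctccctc
Slc6a9: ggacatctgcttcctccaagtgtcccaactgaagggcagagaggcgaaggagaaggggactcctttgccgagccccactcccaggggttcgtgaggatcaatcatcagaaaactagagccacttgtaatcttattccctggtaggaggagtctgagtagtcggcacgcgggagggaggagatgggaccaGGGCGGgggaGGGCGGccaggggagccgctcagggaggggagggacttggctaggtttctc
Th: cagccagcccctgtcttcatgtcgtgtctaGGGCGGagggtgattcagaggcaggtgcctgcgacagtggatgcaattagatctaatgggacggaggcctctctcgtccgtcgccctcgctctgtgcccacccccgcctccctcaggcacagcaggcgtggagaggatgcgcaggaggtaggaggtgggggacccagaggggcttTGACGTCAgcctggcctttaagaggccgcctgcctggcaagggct
Onecut1: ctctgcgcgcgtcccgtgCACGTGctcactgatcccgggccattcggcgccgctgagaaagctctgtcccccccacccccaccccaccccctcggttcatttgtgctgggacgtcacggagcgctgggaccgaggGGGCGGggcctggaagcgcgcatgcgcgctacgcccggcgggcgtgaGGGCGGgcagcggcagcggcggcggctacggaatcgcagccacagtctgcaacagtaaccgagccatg
Chat: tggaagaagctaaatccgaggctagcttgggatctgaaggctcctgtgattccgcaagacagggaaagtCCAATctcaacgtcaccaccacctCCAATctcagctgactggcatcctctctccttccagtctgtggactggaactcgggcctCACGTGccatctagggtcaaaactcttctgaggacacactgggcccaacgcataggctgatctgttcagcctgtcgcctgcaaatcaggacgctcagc

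E-boxes were present in 2 of the 12 start-site windows that the table holds for 9 of the genes, at Onecut1 (232 to 227 bases before the start) and at Chat (98 to 93 bases before it). Of all 32851 windows in the table, 6.02% held a CACGTG. The variant CACGTT was in 0 of the 12, against 3.85% of all windows. The cyclic AMP response element stood 45 to 38 bases before the start of Th, and 1.55% of all windows held one. A GC box was in 6 of the 12 windows, at Gad1, Slc6a9, Th, Onecut1 and both Tfap2a starts, against 32.7% of all windows. CCAAT was in 2, at Gad2 and Chat, against 33.8%. No matches overlapped each other in these windows. The windows held 5 to 31 CG dinucleotides, where the median of all windows was 6.0, and the highest number was at Onecut1. A match is a sequence feature only, and the lack of one says nothing about binding elsewhere.

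At the gene ends, control 1 had a summit within 1 kb of either annotated end of 7 of the 10 genes, and Bmal1 CKO 2 of none. Within 500 bp the counts were 5 and 0, against 58.2% and 49.4% of all protein-coding genes. The 1 kb count over all protein-coding genes was 69.5% in control 1 and 58.8% in Bmal1 CKO 2, with 54.6% in both and 14.8% in control 1 without Bmal1 CKO 2. These counts chose the genes, and nothing is read from them. The 7 genes were Gad1, Slc6a9, Chat, Th, Tfap2a, Onecut1 and Onecut2, with 9 end peaks among them. The 1 kb limit divided close values. The Gad1 summit in control 1 was just inside it, at 997 bp from the end, and Tfap2b and Slc32a1 were just outside, at 1026 bp and 1067 bp. In Bmal1 CKO 2 the nearest summits outside the limit were at 1083 bp for Onecut1, 1113 bp for Slc6a9 and 1205 bp for Th.

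**Figure D1:**
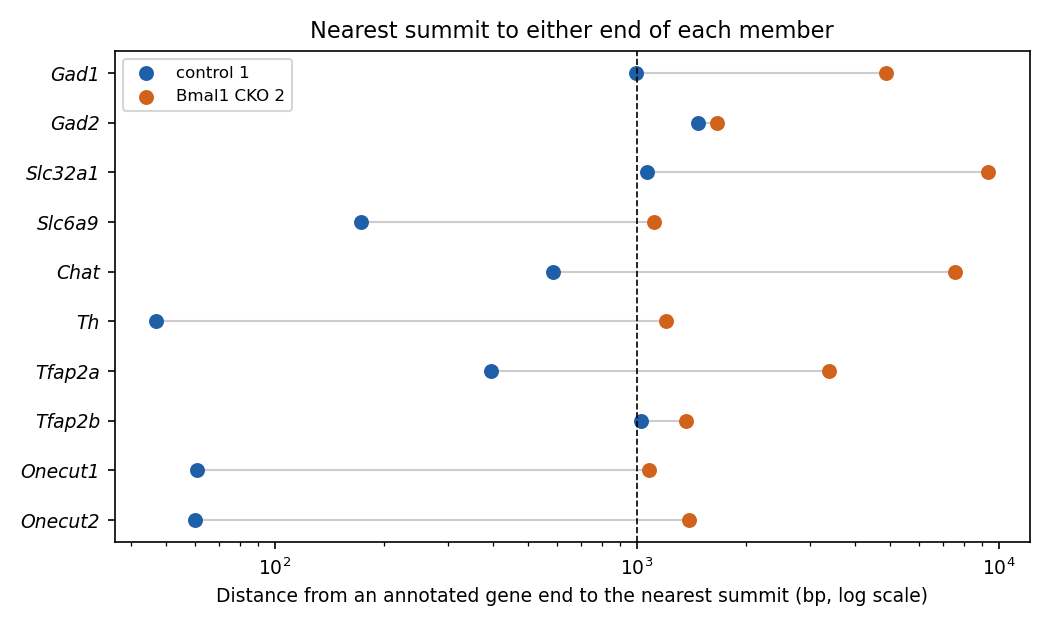
Distance in bp (log scale) from either annotated end of each gene to the nearest summit in control 1 (blue) and Bmal1 CKO 2 (orange); the dashed line marks 1 kb. Control 1 has 7 genes left of the line, and all 10 Bmal1 CKO 2 points lie to its right, 3 of them between 1083 and 1205 bp.

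A wider window brought back end peaks in Bmal1 CKO 2. Within 1.5 kb, control 1 had an end peak at all 10 genes and Bmal1 CKO 2 at 5, against 74.6% and 63.3% of all protein-coding genes. Within 2 kb the counts were 10 and 6, against 77.8% and 66.6%. The 6 were Gad2 (1664 bp), Slc6a9 (1113 bp), Th (1205 bp), Tfap2b (1362 bp), Onecut1 (1083 bp) and Onecut2 (1396 bp). In the range from 1 to 2 kb the nearest end summit of Bmal1 CKO 2 was found for 7.76% of all protein-coding genes. That share is not a like one, since 58.8% of all protein-coding genes had a summit inside 1 kb and could not fall in the range. Because genes with none inside 1 kb were chosen, a higher count just outside it follows in part from the choice. The remaining 4, Gad1, Slc32a1, Chat and Tfap2a, had their nearest end summit in Bmal1 CKO 2 at 4858, 9331, 7573 and 3396 bp.

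**Figure D2:**
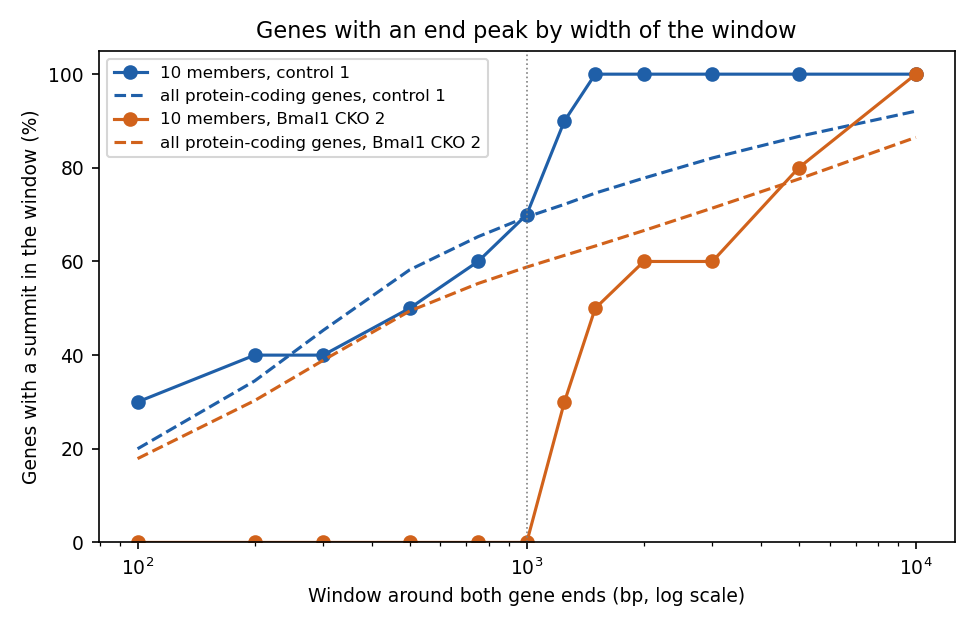
Share of genes (%) with a summit inside a window around both gene ends, by window width in bp (log scale), for the 10 genes (points and solid lines) and all protein-coding genes (dashed lines) in control 1 (blue) and Bmal1 CKO 2 (orange); the dotted line marks 1 kb. The Bmal1 CKO 2 points stay at 0 up to 1 kb and reach 60.0% at 2 kb, where all protein-coding genes stand at 66.6%.

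Measured from start sites instead of gene ends, control 1 had a summit within 1 kb at 5 of the 9 genes with a start site in the promoter table, and Bmal1 CKO 2 at 1. Over all protein-coding genes of that table the shares were 69.2% and 59.7%, with 56.3% in both lists, where these genes had 1. A start site of Slc6a9, Th, Onecut1 and Chat is also the annotated gene end. The choice of the genes by their end peaks therefore bears on the start-site counts too, and nothing is read from them. The 5 were Gad1 (171 bp downstream of the start), Gad2 (158 bp downstream), Slc6a9 (173 bp downstream), Th (47 bp downstream) and Onecut1 (61 bp upstream). The single gene in Bmal1 CKO 2 was Gad2, with a summit 675 bp downstream of the start. Gad1 and Gad2 have a gene table entry that begins before the start site used here, which is why Gad2 counted at its start and not at its end. The end peaks of Chat and Tfap2a in control 1 were not at a start site of the table: that of Chat lay 57120 bp downstream, in the last part of the gene, and that of Tfap2a lay 3714 bp upstream.

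Of the 9 end peaks of these genes in control 1, 8 stood on a local background above the median of all end peaks. The 9 peaks had folds of 2.2 to 3.02 (median 2.54), from 17 to 40 stacked fragments over an expected 5.1 to 12.6. All 18792 end peaks of control 1 had a median fold of 3.59 and a median background of 6.72, and 28.6% of them had a fold no higher than the highest of the 9. The median number of stacked fragments was 29.0 in the 9 and 28.0 in all. Here the fold is the authors' value at the summit, read as stacked fragments over the local background of the same library, with 1 added to both. It ranks peaks within a list only. Of the 9, 2 overlapped a peak of Bmal1 CKO 2 by at least 1 base, which follows from the choice of the genes and is given as a description (64.4% of all control 1 end peaks did).

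Over the whole windows, control 1 held 73 peaks and Bmal1 CKO 2 held 33, a ratio of 2.21, where all protein-coding genes with their 10 kb flanks held 107984 and 80670, a ratio of 1.34. Bmal1 CKO 2 had fewer peaks at 9 of the 10 genes, and Th had 2 peaks in each list. All counts in this paragraph include the end peaks that chose the genes, 9 in control 1 and 0 in Bmal1 CKO 2. At Th, 1 of the 2 peaks of control 1 was an end peak. The counts are thus a description. Of protein-coding genes with a peak in either list, 63.3% had fewer in Bmal1 CKO 2. By length, the genes had a median of 1.21 peaks per 10 kb in control 1 and 0.535 in Bmal1 CKO 2, against 0.962 and 0.649 over all protein-coding genes. All 10 genes had a peak in both lists, as did 92.5% and 87.8% of protein-coding genes taken list by list. The window edge of the rule also divided near values: the outermost peaks taken lay 9743 bp from Tfap2b in control 1 (fold 3.81) and 9772 bp from Slc32a1 in Bmal1 CKO 2 (2.49), and the first ones left out lay 10732 bp from Slc32a1 (3.18) and 10339 bp from Gad2 (3.81).

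Inside a gene, more than 1 kb from its ends, control 1 had 42 peaks and Bmal1 CKO 2 had 17, a ratio of 2.47 where all protein-coding genes gave 1.38. In the flanks they had 22 and 16, a ratio of 1.38 against 1.32. The classes are not fully alike. Over all protein-coding genes, a peak within 1 kb of any gene's end was an end peak. At the 10 genes only the gene's own ends counted, so peaks near the ends of Actr5 and Ccdc24 were flank peaks. The differences between the 2 lists were not tested, and they come from the contrast that chose the genes. Exons and introns could not be told apart with the annotation used here. Of the 33 peaks of Bmal1 CKO 2, 23 (69.7%) overlapped a control 1 peak, against 56.7% for all protein-coding genes with flanks. Of the 73 of control 1, 25 (34.2%) overlapped a Bmal1 CKO 2 peak, against 41.0%. The 56.7% and 41.0% include end peaks, on which the genes were chosen and which overlapped most (85.3% and 64.4%). By class, 70.6% of gene body and 68.8% of flank peaks of Bmal1 CKO 2 overlapped, against 49.5% and 51.7% over all protein-coding genes. In control 1 these shares were 26.2% and 54.5%, against 35.4% and 39.0%. Each of the 10 genes had at least 1 overlapping pair. Of the 15 control 1 peaks with a fold of at least 4, 5 overlapped Bmal1 CKO 2, against 62.9% of all control 1 peaks with such a fold. That share also includes end peaks, and the 15 hold none. To set the 73 peaks of control 1 beside the short lists, each was carried to the background of a short list at an unchanged fold. The lowest −log10 p-value of the list was then reached by 36 of the 73 in Bmal1 CKO 1 (5.45), 6 in control 3 (6.2), 7 in Bmal1 CKO 3 (5.05) and 2 in control 2 (6.76). Of the 9 end peaks, 2 reached it in Bmal1 CKO 1 and none in the other 3. None of these 4 lists held a peak at the 10 genes. Because the fold has 1 added to both terms, keeping it raised the ratio of fragments to background in the shallower lists. The Gad2 peak at 22659644, with 26 fragments over 3.46 in control 1, was carried as 8.73 over 0.609 in control 2. The counts reached in the short lists are therefore raised by the method, and they do not show which peaks a short list should have held. No share over all control 1 peaks carried in this way is given here to set beside them. At the higher background of Bmal1 CKO 2 all 73 peaks, the 9 end peaks included, reached the lowest value of that list (2.87).

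**Figure D3:**
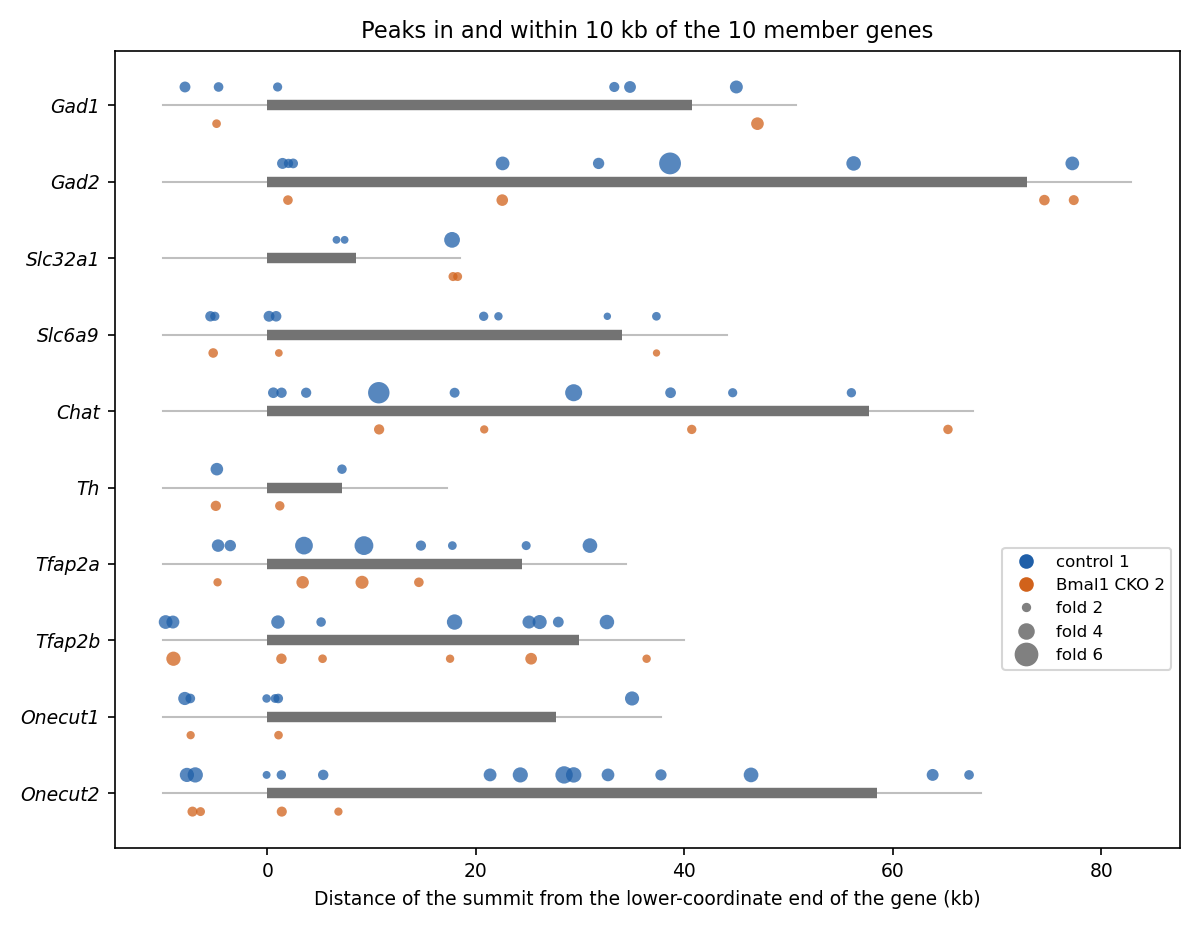
Position of every summit at the 10 genes, in kb from the lower-coordinate end of each gene (dark bars are the genes, thin lines their 10 kb flanks), for control 1 (blue, above) and Bmal1 CKO 2 (orange, below); the diameter of a point is proportional to its fold. Control 1 has 73 points and Bmal1 CKO 2 has 33, and no orange point lies within 1 kb of an end.

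The GABA genes come first. Gad1 and Gad2 encode the glutamate decarboxylases GAD67 and GAD65, which make GABA, and Slc32a1 encodes the transporter that loads GABA and glycine into synaptic vesicles. Together they held 17 peaks in control 1 and 8 in Bmal1 CKO 2, of which 5 in each list overlapped.

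Gad1 (chromosome 2, 70561303 to 70602014) had 6 peaks in control 1 and 2 in Bmal1 CKO 2. The start-site summit of control 1, at 70562300, had a fold of 2.54 from 28 fragments over 10.4. It also lay inside the antisense gene Gad1os, so it cannot be given to either gene. The closest Bmal1 CKO 2 summit was 5855 bp away. A flank peak 4666 bp before the lower end in control 1 (fold 2.67) and 4858 bp before it in Bmal1 CKO 2 (2.41) overlapped. Inside the gene, control 1 had summits at 70594585 (2.81) and 70596093 (3.28), and Bmal1 CKO 2 had none. The highest fold of each list was beyond the upper end, with 3.59 at 4276 bp in control 1 and 3.51 at 6299 bp in Bmal1 CKO 2, at places 2023 bp apart.

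Gad2 (chromosome 2, 22621015 to 22693877) had 8 peaks in control 1 and 4 in Bmal1 CKO 2. A group of 3 summits followed the start site in control 1, at 158, 729 and 1173 bp downstream, with folds of 3.05, 2.58 and 2.71. Bmal1 CKO 2 had 1 there, 675 bp downstream, with a fold of 2.67 from 28 fragments over 9.88, and it lay 54 bp from the middle summit of control 1. The highest fold at any of the 10 genes was in the body of Gad2 in control 1, at 22659644, with 6.05 from 26 fragments over 3.46, which stood at percentile 97.7 of that list. The nearest Bmal1 CKO 2 summit was 16091 bp away. By contrast, the pair at 22643587 in control 1 (3.81) and 22643553 in Bmal1 CKO 2 (3.22) lay 34 bp apart.

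Slc32a1 (chromosome 2, 158607260 to 158615747) had 3 peaks in control 1 and 2 in Bmal1 CKO 2. Inside the gene, control 1 had summits at 158613902 and 158614680, with folds of 2.16 and 2.17 from 35 fragments each over 15.7 and 15.6. These folds stood at percentiles 0.418 and 0.469 of the list. Bmal1 CKO 2 had none inside. The other peaks of both lists lay in the neighbouring gene Actr5, 103 bp from its end in control 1 (4.37) and 197 and 638 bp from it in Bmal1 CKO 2 (2.52 and 2.49). The signal in the Slc32a1 window that both lists shared was thus at the end of another gene.

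Slc6a9 encodes the glycine transporter GlyT1, which glycinergic amacrine cells use to take up glycine. The gene (chromosome 4, 117835258 to 117869305) had 8 peaks in control 1 and 3 in Bmal1 CKO 2, and all 3 overlapped control 1. Its end peak at 117835431 in control 1 had the highest fold of the 9 end peaks, 3.02 from 40 fragments over 12.6. A second summit followed 852 bp downstream of the start (2.93, from 38 over 12.3). The Bmal1 CKO 2 peak that overlapped it had its summit 1113 bp downstream, with a fold of 2.14 from 36 fragments over 16.3. The start region of Slc6a9 was therefore listed in both libraries, on either side of the 1 kb limit. Upstream of the gene, control 1 had summits at 117829811 (2.88) and 117830231 (2.56), and Bmal1 CKO 2 had 1 wide peak with its summit between them at 117830076 (2.66). Summits 10 bp apart near the end of Ccdc24, the gene next to Slc6a9, had folds of 2.41 and 2.03. Near the later start sites of Slc6a9, control 1 had a summit 467 bp downstream of the third one (2.59), and Bmal1 CKO 2 had none within 16575 bp.

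Chat encodes choline acetyltransferase, which makes acetylcholine in starburst amacrine cells. The gene (chromosome 14, 32408203 to 32465909, minus strand) had 9 peaks in control 1 and 4 in Bmal1 CKO 2, and 1 pair overlapped. That pair, 31 bp apart in the gene body, had a fold of 5.94 from 33 fragments over 4.72 in control 1 (at 32418902) and 2.84 from 24 over 7.8 in Bmal1 CKO 2. A second high summit of control 1, at 32437589 with a fold of 4.72 from 26 fragments, had its nearest Bmal1 CKO 2 summit 8578 bp away. Neither library had a summit within 1 kb of the Chat start with its E-box. The closest was 1688 bp downstream in control 1 (2.59, from 31 fragments over 11.4) and 7573 bp upstream in Bmal1 CKO 2 (2.62). The control 1 summit lay inside Slc18a3, the vesicular acetylcholine transporter gene nested in Chat, 629 bp from its end. Near the far end of Chat, control 1 had its end peak, 586 bp from the lower end, with 2.95 from 17 fragments over 5.1.

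Th encodes tyrosine hydroxylase, the rate-limiting enzyme of dopamine synthesis and the marker of dopaminergic amacrine cells. The gene (chromosome 7, 142892779 to 142899995, minus strand) had 2 peaks in each long list. Control 1 had a summit at 142899948, 47 bp inside the start and so downstream of the cyclic AMP response element shown above, with a fold of 2.63 from 29 fragments over 10.4. Bmal1 CKO 2 had no summit within 5964 bp of it. Its own peak inside the gene was at 142893984, 6011 bp downstream of the start and 1205 bp from the far end, with 2.61 from 36 fragments over 13.2. Beyond the far end, summits 99 bp apart had folds of 3.49 in control 1 and 2.86 in Bmal1 CKO 2.

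The 4 transcription factor genes held 37 peaks in control 1 and 16 in Bmal1 CKO 2. Tfap2a and Tfap2b encode AP-2 factors of amacrine and horizontal precursors, and Onecut1 and Onecut2 encode homeodomain factors that act in horizontal cell development. Of the 16 peaks, 13 (81.2%) overlapped control 1, against 56.7% for all protein-coding genes with flanks, and of the 37, 14 (37.8%) overlapped Bmal1 CKO 2, against 41.0%. As above, the 56.7% and 41.0% include end peaks, on which the genes were chosen. Over all protein-coding genes, gene body and flank peaks stood at 49.5% and 51.7% in Bmal1 CKO 2, and at 35.4% and 39.0% in control 1.

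Tfap2a (chromosome 13, 40713802 to 40738238, minus strand) had 8 peaks in control 1 and 4 in Bmal1 CKO 2, and all 4 overlapped. The gene body held wide pairs. At 40723077 in control 1 a peak 995 bp wide had a fold of 5.21 from 36 fragments over 6.1, and its partner at 40722894 in Bmal1 CKO 2 was 749 bp wide, with 3.62 from 33 over 8.38. At 40717327 and 40717198 the folds were 4.92 and 3.47. These stood at percentiles 93.9 and 90.3 in control 1 and 85.1 and 79.6 in Bmal1 CKO 2. Another pair, at 40728543 and 40728345, lay inside the noncoding gene Gm26688, with 2.83 and 2.66. The end peak of control 1, 396 bp outside the upper end (2.5), had no Bmal1 CKO 2 summit within 10289 bp.

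Tfap2b (chromosome 1, 19208908 to 19238845) had 9 peaks in control 1 and 6 in Bmal1 CKO 2, the most of any of the 10 genes in that list. Of the 6, 4 overlapped control 1. The highest fold of Bmal1 CKO 2 at the 10 genes was in its flank, at 19199914, with 3.95 from 26 fragments over 5.83, at percentile 92.6. The control 1 summit 52 bp away had 3.59 from 15 over 3.46. Near the lower end, control 1 had a summit 1026 bp inside the gene (3.72) and Bmal1 CKO 2 one at 1362 bp (2.9), in overlapping peaks. Both lie upstream of the start site of the promoter table, by 2120 and 1784 bp. The gene body pair at 19234012 and 19234215 had 3.62 and 3.25.

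Onecut1 (chromosome 9, 74861921 to 74889648) had 6 peaks in control 1 and 2 in Bmal1 CKO 2, and both of these overlapped. Control 1 had 3 summits around the start, 61 bp upstream and 751 and 1059 bp downstream, with folds of 2.36, 2.44 and 2.66. In Bmal1 CKO 2 a single peak 492 bp wide had its summit 1083 bp downstream, 24 bp from the third of these, with a fold of 2.39 from 33 fragments over 13.2. Of the peaks around the start, the one with its summit 61 bp upstream was nearest to the E-box, and it was listed in control 1 alone. It ran from 74861758 to 74861983 and did not contain the E-box, and its fold stood at percentile 2.11 of the list. All of the summits around the start are also inside the noncoding gene Gm33562, which spans the Onecut1 start. The flank pair at 74854545 and 74854578 had folds of 2.68 and 2.3.

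Onecut2 (chromosome 18, 64340032 to 64398488) had the most peaks in control 1, 14, and 4 in Bmal1 CKO 2, of which 3 overlapped. The end peak of control 1, 60 bp outside the lower end, was the lowest of the 9 end peaks, with a fold of 2.2 from 23 fragments over 9.92. The next summits downstream, 1353 bp inside the gene in control 1 (2.61) and 1396 bp in Bmal1 CKO 2 (2.8, from 37 fragments over 12.6), were 43 bp apart. Farther in, more than 20 kb from either end, control 1 had 6 summits with folds of 3.12 to 4.82, and Bmal1 CKO 2 had none. The highest, at 64368499, rested on 23 fragments over 3.98. The nearest Bmal1 CKO 2 summit to it was 21640 bp away. In the lower flank 2 wide peaks of control 1 (3.94 and 4.23) overlapped peaks of Bmal1 CKO 2 (2.78 and 2.48).

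**Figure D4:**
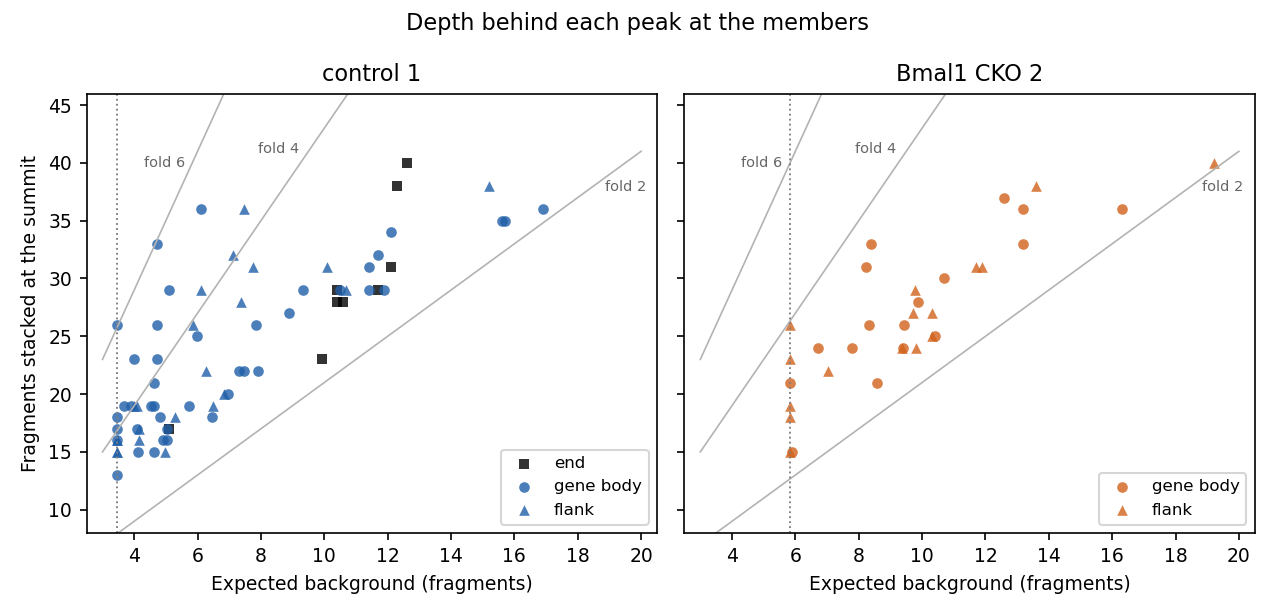
Fragments stacked at each summit against the expected background (both in fragments) for the peaks at the 10 genes in control 1 (left) and Bmal1 CKO 2 (right), with grey lines of equal fold, a dotted line at the genome-wide background (3.46 and 5.83), and squares, circles and triangles for end, gene body and flank peaks. Of the 9 end peaks in control 1, 8 stand at backgrounds of 9.92 to 12.6, and 1, at Chat, at 5.1.

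The fragment numbers set the precision of these values. Peaks at the 10 genes rested on 13 to 40 stacked fragments in control 1 and on 15 to 40 in Bmal1 CKO 2. The background at the summits ran from 3.46 to 16.9 and from 5.83 to 19.2 fragments. At the genome-wide background stood 9 of the 73 peaks of control 1 and 5 of the 33 of Bmal1 CKO 2. The median fold was 3.02 in control 1 (3.41 over all protein-coding genes with flanks) and 2.62 in Bmal1 CKO 2 (2.93).

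Other genes of the same pathways and cells had end peaks in Bmal1 CKO 2. Among 44 such genes, 36 had an end peak by the 1 kb rule in control 1. In Bmal1 CKO 2 the number was 24, all of them among the 36. The short lists had none at any of the 44. For 10 further GABA and glycine genes the numbers were 7 in control 1 and 5 in Bmal1 CKO 2. Glrb, a glycine receptor subunit gene, held the top fold of both lists (4.48 and 3.37). For 10 acetylcholine and dopamine genes they were 10 and 5. There Drd1, a dopamine receptor gene, had the highest fold in control 1 (5.28) and none at its ends in Bmal1 CKO 2, where Slc5a7, the choline transporter gene, had the highest (3.81, against 4.93 in control 1). Ddc, which acts after Th in dopamine synthesis, had 3.99 in control 1 alone. Slc18a3 shared the control 1 peak described for Chat.

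Among 4 relatives of the AP-2 and Onecut factors, Tfap2e alone had an end peak, in control 1 (3.12), and none had one in Bmal1 CKO 2. For 10 fate genes the numbers were 8 in control 1 and 7 in Bmal1 CKO 2, with the highest folds at Neurod4 in control 1 (4.93) and Pax6 in Bmal1 CKO 2 (4.09). For 10 other markers they were 10 and 7, with the highest folds at Lamp5 in control 1 (5.29) and Slc17a8 in Bmal1 CKO 2 (3.81). Set against the 69.5% and 58.8% of all protein-coding genes, the 44 together stood at 36 and 24. They were not compared with the 10 genes by a test, since the 10 were chosen for their end peaks.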

How the data were processed

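Each library has 1 list of peaks. Per the submitters' processing notes, reads were processed with Trim Galore, Bowtie2 and MACS2 on mm10. Not given in the sources used here are versions, parameters and whether an input served as control. Every deposited row holds a summit with its fold enrichment (a ratio), −log10 p-value and −log10 q-value, all by the authors, and a deposited score, which is the −log10 q-value times 10 without its decimals. Peaks were called per library. The series record ties each list to its library, and the numbers in the names of the lists differ from those in the sample titles.

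Gene positions and start sites came from RefSeq tables of GRCm38.p6, whose coordinates are those of mm10. All 10 genes matched the gene table and 9 the promoter table. An end peak has its summit within 1 kb of either annotated gene end. Each fold and p-value pair was solved for a whole number of stacked fragments and an expected background, taking the p-value as Poisson and adding 1 to both terms of the fold. This gave a match within 0.01 for 100.0% of peaks in every list, and the method was tested on simulated data. Provided that this reading is right, the most frequent background stands for relative depth. To carry a peak to another library, its background was scaled by the ratio of these levels and its fold kept, with the added 1 left unscaled.

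The genes and lists were chosen with earlier results of these data known. All 10 genes are named. In the other lists the genes with the highest end fold in each long list are named by rule, and Ddc and Slc18a3 were added after their values were seen. Start sites, the 1.5 kb window and the any-base rule were chosen after seeing the data. No test was run, since the rule used the contrast and 3 libraries against 3 cannot go below an exact permutation p of 0.1. Python 3.11.15, pandas 2.3.3, SciPy 1.17.1 and matplotlib 3.10.9 were used.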

Additional observations from a re-analysis of the deposited data

How the results depend on the processing

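Peak calls were the only readout, and how far depth set them was not tested. Of the 66 values under alternatives, 47 stayed close to the one reported (within 1.5 times for a count, within 1 SD for a difference), among them 8 counts of 0 that these settings could not change. The 47 also hold every alternative of both differences between genotypes. The SD of the reported differences (2.86 for end peaks, 5.77 for any peak) came from the long lists, since every short list counted 0. Even the move from −2.33 to 0 without control 1 stayed within it, so these values say little about stability. For end peaks in Bmal1 CKO 2, and for genes with an end peak in both long lists, the count of 0 became 6 within 2 kb, 5 within 1.5 kb, 3 when any base of a peak within 1 kb of an end counted, and 1 at start sites. The 500 bp window, the stricter filters and the equally long lists cannot raise a count of 0, so they say nothing about its stability. In control 1 the count of 7 fell to 1 with −log10 q-values from 5 up and to 1 with folds from 3 up, and was 5 with equally long lists. It rose to 9 by the any-base rule. For the 2 filters, the equally long lists and the any-base rule no share of all protein-coding genes is given here. Whether these counts moved more than those of other genes is therefore not shown.

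Peaks at the genes numbered 48, 24 and 38 in control 1 (against 73), 17, 4 and 6 in Bmal1 CKO 2 (against 33), and 12, 2 and 5 for Bmal1 CKO 2 peaks overlapping control 1 (against 23), in each case for the genes without flanks, −log10 q-values from 5 up and folds from 3 up. With equally long lists they numbered 53, 33 and 19. Counts over all protein-coding genes are not given here for these settings. The mean number of genes with an end peak was 2.33 in control libraries and 0 in CKO libraries, a difference of −2.33 that ranged from −3.5 to 0 when 1 library was left out, with 0 without control 1. For genes with any peak the difference of 0 ranged from −3.33 (without Bmal1 CKO 2) to 3.33 (without control 1). No paired analysis was possible because the results come from no test, and the labels number the libraries of both genotypes without saying that a number marks a pair.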
